A study of Mus musculus with 6 samples.

Results

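The Hox cluster genes are the homeobox genes named Hox with a cluster letter from a to d and a paralogue number from 1 to 13. They were chosen by symbol alone, as genes with a probe set that the platform annotation pairs with a single such symbol, and 37 genes met this rule, out of 19938 genes tested. Hoxb8 shared its only probe set with Hoxb7 and did not meet it. Each of the 37 had exactly 1 probe set. They lie in cluster A (10 genes measured, chromosome 6), cluster B (9, chromosome 11), cluster C (9, chromosome 15) and cluster D (9, chromosome 2).

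RNA was measured on Affymetrix Mouse Gene ST 1.0 arrays, which carry probes along the whole length of each transcript. One group was Scf-GFP+ cells of the bone marrow, from mice heterozygous for a green fluorescent protein knocked into the stem cell factor gene (Scf, symbol Kitl). The other was whole bone marrow from wild-type mice, a mixture of all marrow cells. Both groups were young adults on the C57BL/6 background, with 3 arrays each and 5000 cells sorted per array. Scf-GFP+ cells were sorted a second time, so population, genotype and sorting changed together between the groups. Sex, read from sex-linked genes given below, was not balanced between them either. The labels name neither the bones the marrow came from nor whether the aliquots of a group came from separate animals. P-values therefore rest on the spread among these aliquots. Scf-GFP+ replicate 3 differed from replicates 1 and 2 in sex-linked genes, so that group was not drawn from 1 animal, while for whole marrow the spread may be technical only. The comparison reads which Hox genes, by cluster and by place within the cluster, are higher or lower in the Scf-GFP+ population than in the marrow around it.

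Hox proteins are transcription factors that give cells along the body axis and the limbs their regional identity. Within each cluster the genes stand in a row, and in the embryo those of low paralogue number are active early and towards the head, those of high number late and towards the tail and the tips of the limbs. Adult mesenchymal cells keep a Hox pattern that records where in the body they arose. Blood stem and progenitor cells also use Hox genes, chiefly of clusters A and B, and silence them as they mature.

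Marker genes were read beside the population labels, from lists chosen with earlier results of these data known. All 5 stromal markers, among them Kitl, Cxcl12 and Lepr, were called higher in Scf-GFP+ cells, against 9.01% of all genes. Kitl is the gene whose GFP was used for the sort, so its call is no independent check of the labels. All 6 pan-blood markers and 6 of 8 neutrophil markers were called lower, against 7.89% of all genes. Scf-GFP+ replicate 1 stood apart in neutrophil markers, whose mean log2 value over 8 genes was 9.43 there, 6.02 and 6.21 in replicates 2 and 3, and 12.11 to 12.18 in whole marrow. Endothelial markers averaged 6.29 to 6.96 in Scf-GFP+ cells and 5.80 to 6.06 in whole marrow. Of these 6 markers 2, Cdh5 and Emcn, were called higher, against 9.01% of all genes. The part of endothelial and of neutrophil RNA in the Hox values was not tested. Xist, from the inactive X chromosome, was high on the arrays of Scf-GFP+ replicates 1 (11.50) and 2 (11.81) and lay between 4.99 and 5.10 on the other 4, while the Y-linked Eif2s3y was low on those 2 arrays (4.41 and 3.72) and 7.33 to 8.23 elsewhere. By these genes those 2 arrays read as female and the other 4 as male, so sex was not balanced between the groups. Median log2 values of the 6 arrays lay between 6.564 and 6.631.

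A gene was called when limma's Benjamini-Hochberg adjusted p over all genes was below 0.05 and the difference was at least 2-fold. By this rule 12 of the 37 Hox genes (32.4%) were higher in Scf-GFP+ cells, against 9.01% of all genes tested. No Hox gene was called lower, against 7.89% of all genes, and none had an unadjusted p below 0.05 in that direction. Over all 19938 genes tested, limma gave an unadjusted p below 0.05 to 3608 that were higher and 3908 that were lower. The 12 were Hoxa2, Hoxa5, Hoxa6, Hoxa9 and Hoxa10 in cluster A, Hoxc4, Hoxc5, Hoxc6, Hoxc8, Hoxc9 and Hoxc10 in cluster C, and Hoxd8 in cluster D. Cluster B had none. The median log2 difference was 0.57 over the Hox genes and -0.08 over all genes. In bulk samples a higher value cannot tell more expressing cells from more RNA per cell.

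**Figure D1:**
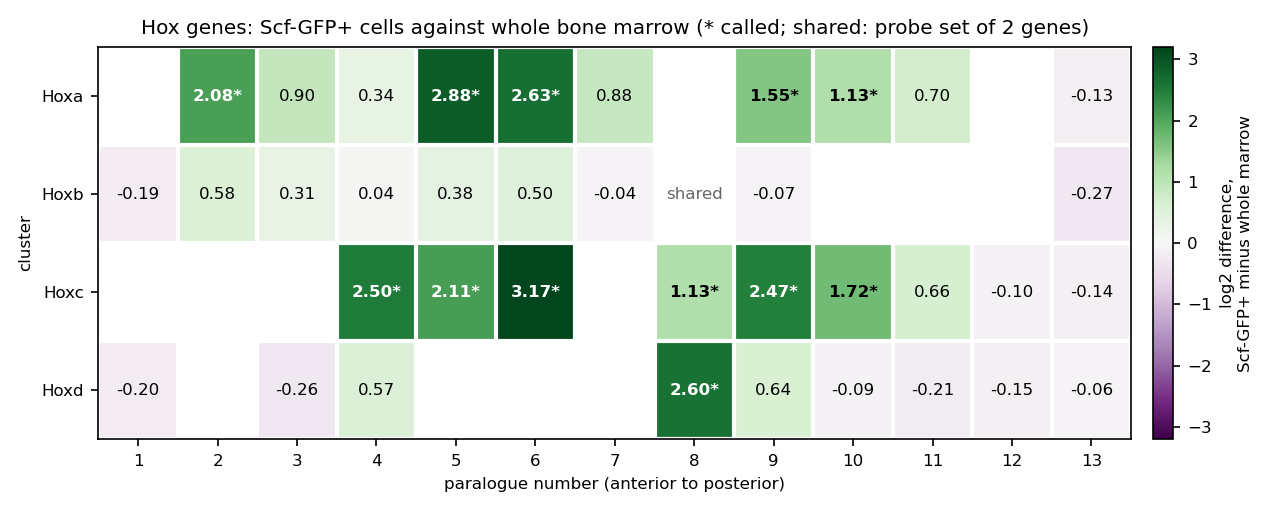
Log2 difference, Scf-GFP+ cells minus whole bone marrow, for each Hox gene, with clusters in rows and paralogue numbers in columns. Asterisks mark called genes, the word shared marks Hoxb8, whose probe set also reads Hoxb7, and empty cells hold no gene analysed here. The called genes lie in clusters A and C between numbers 2 and 10, except Hoxd8 in cluster D.

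All 3 Scf-GFP+ arrays lay above all 3 whole marrow arrays for 22 of the 37 Hox genes, against 19.0% of all genes. They lay below for 5, against 26.4% of all genes. Read by position, 1 of 7 anterior genes (numbers 1 to 3), 7 of 14 central genes (4 to 8) and 4 of 16 posterior genes (9 to 13) were called higher. The posterior calls were all of numbers 9 and 10. None of the 9 genes numbered 11 to 13 was called by limma, against 9.01% of all genes higher and 7.89% lower. Of these 9, 1 had an unadjusted p below 0.05, in the higher direction. Of the 12 genes numbered 4 to 10 in clusters A and C, 10 were called, with a median difference of 1.92. Of the 9 genes with those numbers in clusters B and D, 1 was called, with a median of 0.38. These are counts and medians of named genes, and the difference between the clusters was not tested.

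In cluster A the largest difference was that of Hoxa5 (probe set 10544768), a factor of the neck and upper chest skeleton and the lung. It measured 9.09, 9.61 and 9.49 in the Scf-GFP+ arrays and 6.30, 6.19 and 7.05 in whole marrow. The groups did not overlap, and Hoxa5 was 7.38-fold higher (2.88 ± 0.26 on the log2 scale, here and for later genes with limma's SE and 3 arrays in each group, limma adjusted p = 0.000303). Hoxa6 (10544774), its neighbour, measured 9.12, 9.29 and 8.99 against 6.37, 6.45 and 6.71. This was 6.17-fold higher, with replicates close together in both groups (2.63 ± 0.14, limma adjusted p = 2.75e-05).

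Hoxa2 (10544751), which patterns the hindbrain and the second branchial arch, was the 1 anterior gene called. Its Scf-GFP+ values were 6.90, 8.13 and 7.51, a wide spread, while whole marrow held 5.41, 5.48 and 5.39. The difference was 2.08 ± 0.29 (4.24-fold, limma adjusted p = 0.00236), well beyond that spread.

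Hoxa9 (10544788), a regulator of blood stem and progenitor cells and a driver of leukaemia when overexpressed, was higher in the stromal population than in the marrow. It measured 8.78, 8.65 and 8.89 in the stromal population against 7.43, 7.11 and 7.12 in whole marrow, without overlap (2.93-fold, 1.55 ± 0.13, limma adjusted p = 0.000255). Of 7 measured markers of stem and progenitor cells, 5 were called lower in Scf-GFP+ cells, against 7.89% of all genes, and none higher, against 9.01%. Among the 5 were Myb at -3.26 ± 0.13 and Flt3 at -1.79 ± 0.24. Kit (-0.26 ± 0.19) and Mecom (0.36 ± 0.38) were not called. The part of such cells in the Hoxa9 values was not tested. Hoxa10 (10544798), which acts beside Hoxa9 in progenitors and patterns the lumbar spine, measured 7.35, 7.68 and 6.87 against 6.20, 6.09 and 6.23. Its difference, 1.13 ± 0.21 (limma adjusted p = 0.00791), was the smallest of the 12 together with that of Hoxc8. Without Scf-GFP+ replicate 2 it fell under the 2-fold minimum (0.94, limma adjusted p = 0.0148). With a term for the arrays of high Xist, in which the comparison rests on Scf-GFP+ replicate 3, it was 0.69 (limma adjusted p = 0.0603, range 0.00189 to 0.0603 under other settings).

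The other cluster A genes were not called. Hoxa3 differed by 0.90 ± 0.13 and Hoxa7 by 0.88 ± 0.23, with adjusted p below 0.05 in limma but less than 2-fold. Hoxa7 measured 7.71, 7.52 and 8.40 against 6.92, 7.00 and 7.06, and passed without Scf-GFP+ replicate 2 (1.06, limma adjusted p = 0.0217, range 0.00285 to 0.0933 under other settings). Hoxa4 differed by 0.34 ± 0.10. Hoxa11, a gene of the forearm and lower leg, measured 6.10, 6.43 and 6.86 against 5.84, 5.74 and 5.72 (0.70 ± 0.19, limma adjusted p = 0.0387). With the term for high Xist, Hoxa3, Hoxa7 and Hoxa11 reached 1.09, 1.41 and 1.09 and were called. Hoxa13, a gene of the hand and foot at the end of the cluster, differed by -0.13 (95% interval -0.39 to 0.14). In RefSeq's annotation the Hoxa3 locus overlaps Hoxa4, Hoxa5 and Hoxa6, so which of these transcripts a probe set read is uncertain. The same limit holds for Hoxb3 with Hoxb4, Hoxd3 with Hoxd4 and Hoxd10 with Hoxd11.

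**Figure D2:**
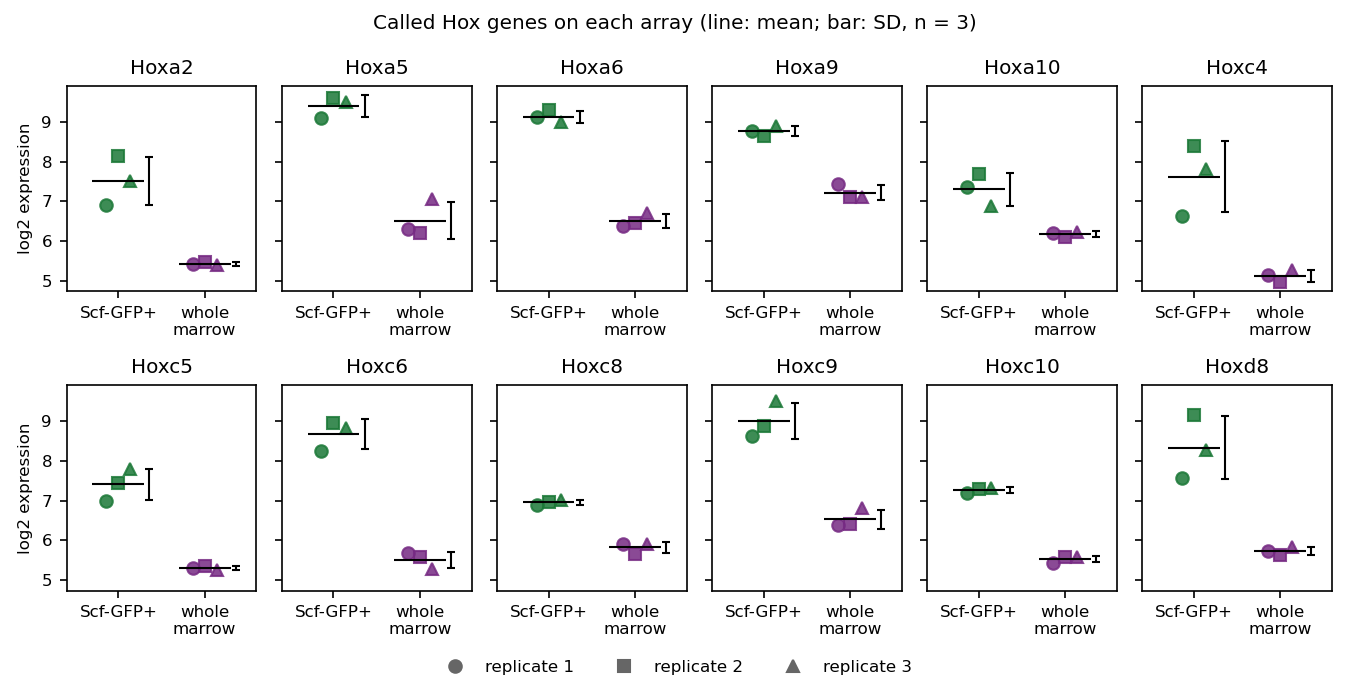
Log2 expression of the 12 called Hox genes on each array, with symbols for replicates, a line at the mean and a bar for the SD (n = 3). In every panel the lowest Scf-GFP+ array lies above the highest whole marrow array, and the Scf-GFP+ values of Hoxa2, Hoxc4 and Hoxd8 are the most spread.

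Cluster C, which in the mouse has no genes numbered 1 to 3, held the largest difference of all. Hoxc6 (10427293), a gene of the chest region, measured 8.25, 8.95 and 8.83 in Scf-GFP+ cells, against 5.67, 5.57 and 5.27 in whole marrow. It was higher by 3.17 ± 0.21 (95% interval 2.66 to 3.68, limma adjusted p = 8.34e-05) and ranked 333 among the 1796 genes called higher. Its neighbour Hoxc5 (10427297) measured 7.00, 7.43 and 7.79 against 5.30, 5.34 and 5.25 (4.31-fold, 2.11 ± 0.20, limma adjusted p = 0.000396).

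Hoxc4 (10427303), at the anterior end of the cluster, was the most variable of the 12. Its Scf-GFP+ values were 6.64, 8.40 and 7.81, with replicate 1 lowest, and its whole marrow values 5.14, 4.97 and 5.26. The groups stayed apart by more than 1 log2 unit, and the difference was 2.50 ± 0.42 (5.64-fold, limma adjusted p = 0.00513).

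Among the later genes of cluster C, Hoxc9 (10427286) measured 8.63, 8.87 and 9.51 against 6.39, 6.40 and 6.81. This was a 5.53-fold difference (2.47 ± 0.25, limma adjusted p = 0.000536). Hoxc10 (10427280), active in the hindlimb and lumbar region of the embryo, measured 7.18, 7.29 and 7.31 against 5.44, 5.57 and 5.59, with the smallest SE among the 12 (3.30-fold, 1.72 ± 0.10, limma adjusted p = 4.92e-05). Hoxc8 (10427290), a chest gene that also acts in cartilage and bone, measured 6.89, 6.96 and 7.02 against 5.91, 5.66 and 5.90 (2.19-fold, 1.13 ± 0.11, limma adjusted p = 0.000516).

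The run of calls ended after Hoxc10. Hoxc11 measured 5.11, 6.38 and 5.27 against 4.91, 4.89 and 4.98, so its difference of 0.66 ± 0.32 came mostly from Scf-GFP+ replicate 2 and was not called (limma adjusted p = 0.191). Without that replicate it was smaller, at 0.27. Hoxc12 differed by -0.10 (95% interval -0.36 to 0.17) and Hoxc13, which acts in hair and nail, by -0.14 (-0.64 to 0.35).

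Hoxd8 (10472965) was the 1 called gene of cluster D. It measured 7.57, 9.15 and 8.28 in Scf-GFP+ cells, again lowest in replicate 1, and 5.72, 5.64 and 5.84 in whole marrow. It was 6.07-fold higher (SE 0.37, 95% interval 1.72 to 3.48 on the log2 scale, limma adjusted p = 0.00246). The genes at its sides differed less. Hoxd9 measured 7.37, 7.27 and 7.16 against 6.66, 6.55 and 6.65, a tight difference of 0.64 ± 0.11 (limma adjusted p = 0.00482) that stayed under 2-fold. Hoxd4 differed by 0.57 ± 0.16 (limma adjusted p = 0.0405). From Hoxd10 to Hoxd13, the genes that shape forearm, hand and digits, differences lay between -0.21 and -0.06 and none was called. Of these, Hoxd10, Hoxd12 and Hoxd13 gave low signal in both groups, as set out below. Hoxd1 and Hoxd3 differed by -0.20 ± 0.10 and -0.26 ± 0.13.

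No cluster B gene was called in either direction by limma, against 9.01% of all genes higher and 7.89% lower. An unadjusted p below 0.05 was found for 3 of the 9, all higher in Scf-GFP+ cells, against 3608 of all 19938 genes. The largest difference was that of Hoxb2, 0.58 ± 0.18 (limma adjusted p = 0.0518), followed by Hoxb6 at 0.50 ± 0.23, Hoxb5 at 0.38 ± 0.13 and Hoxb3 at 0.31 ± 0.13. Hoxb4, known for expanding blood stem cells when overexpressed, measured 8.22, 8.53 and 8.62 in Scf-GFP+ cells, against 8.48, 8.33 and 8.42 in whole marrow. These values overlapped, and the interval of the difference, -0.28 to 0.37, excluded a 2-fold change in either direction. The same held for Hoxb7 (-0.04, interval -0.30 to 0.22) and Hoxb9 (-0.07, interval -0.32 to 0.18). Hoxb9 measured 6.52 to 6.73, little above the olfactory receptor yardstick set out below, so its interval speaks of array signal only. The probe set that Hoxb8 shares with Hoxb7 measured 7.30, 7.24 and 7.10 on the Scf-GFP+ arrays, a mean of 7.21 ± 0.10 (SD, n = 3). In whole marrow it measured 6.91, 7.19 and 7.25, a mean of 7.12 ± 0.18. It was not tested, since it names more than 1 gene.

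**Figure D3:**
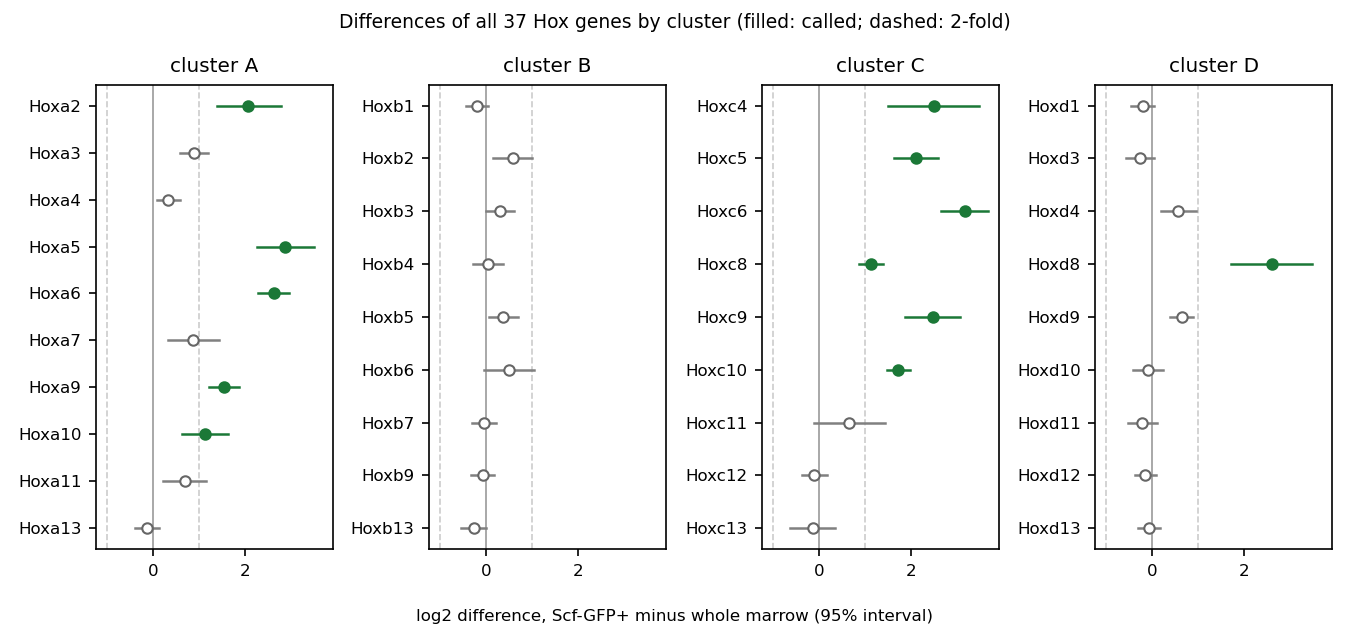
Log2 difference, Scf-GFP+ minus whole marrow, with its 95% interval from limma for all 37 Hox genes, in order of paralogue number within each cluster. Filled green points are called genes and dashed lines mark a 2-fold difference. The intervals of genes numbered 12 and 13 include 0, no cluster B gene reaches 1 in its estimate, and those of most cluster C genes up to Hoxc10 lie beyond 2-fold.

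Paralogues are the genes of equal number in different clusters, which arose from 1 ancestor. In group 6, Hoxa6 and Hoxc6 differed by 2.63 (interval 2.29 to 2.96) and 3.17 (2.66 to 3.68), and Hoxb6 by 0.50 (-0.04 to 1.04). In group 5, Hoxa5 and Hoxc5 were called and Hoxb5 was not. In group 9, Hoxc9 (1.87 to 3.06) and Hoxa9 (1.23 to 1.87) had intervals above that of Hoxd9 (0.39 to 0.90), and that of Hoxb9 spanned 0. In group 4, Hoxc4 alone was called, at 2.50 ± 0.42, against 0.34 ± 0.10 for Hoxa4. In group 10, Hoxa10 and Hoxc10 were called and Hoxd10 differed by -0.09. Each interval is for 1 gene, and the differences between paralogues were not tested.

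Replicates of the 12 called genes were more spread in Scf-GFP+ cells (median SD 0.38) than in whole marrow (0.14). Over the 25 uncalled Hox genes the medians were 0.11 and 0.08, and over all genes 0.17 and 0.16. For 8 of the 12, no whole marrow array exceeded the olfactory receptor yardstick set out below. The part of such low signal in the smaller whole marrow spread was not tested. Scf-GFP+ replicate 1 was the lowest of its group for 9 of the 12 and the highest for none. It is also the array with the high neutrophil markers, whose part in these values was not tested. Without it, all 12 stayed called, with differences of 2.39 for Hoxa2, 2.98 for Hoxc4 and 2.98 for Hoxd8.

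Low values limit what these arrays can show. As a yardstick for probe sets with little transcript, the 95th percentile of 1027 olfactory receptor genes lay between 6.24 and 6.36 on the 6 arrays. Of the 37 Hox genes, 25 exceeded it on at least 3 arrays. On no array was it exceeded by 8 uncalled genes, namely Hoxa13, Hoxb13, Hoxc13, Hoxd1, Hoxd3, Hoxd10, Hoxd12 and Hoxd13. Their small differences do not show that the groups express them equally. All 12 called genes exceeded the yardstick on all 3 Scf-GFP+ arrays. Only Hoxa6, Hoxa9 and Hoxc9 did so on all 3 whole marrow arrays, and 8 of the 12 on none. For these 8 the difference was measured against signal no higher than this yardstick, and the deposited values carry no detection call.

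Promoter sequence was at hand for 21 of the 37 Hox genes, 7 of them called, which is too few for a comparison of called with uncalled genes. The 150 bases before the annotated start, from RefSeq on build GRCm38.p6 and read along the gene's own strand, are shown for 5 of the 7 called genes (not Hoxa9 and Hoxa10) and for Hoxb4 and Hoxd4, which were not called. They were picked with their values known, to show genes of each cluster with contrasting results. Capitals mark matches, on either strand, to AGGTCA (the half-site of retinoic acid receptors), CCAAT (the box bound by NF-Y) and TGATNNAT (a joint Pbx and Hox site).
Hoxa2 (chr6:52164832-52164981, minus strand): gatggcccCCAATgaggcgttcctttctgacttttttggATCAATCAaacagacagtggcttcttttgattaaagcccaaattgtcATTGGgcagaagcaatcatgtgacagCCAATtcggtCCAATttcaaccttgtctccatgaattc
Hoxa5 (chr6:52204588-52204737, minus strand): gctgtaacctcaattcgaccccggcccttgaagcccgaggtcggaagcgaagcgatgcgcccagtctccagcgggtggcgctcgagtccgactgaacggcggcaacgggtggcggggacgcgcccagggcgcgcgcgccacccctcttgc
Hoxa6 (chr6:52208673-52208822, minus strand): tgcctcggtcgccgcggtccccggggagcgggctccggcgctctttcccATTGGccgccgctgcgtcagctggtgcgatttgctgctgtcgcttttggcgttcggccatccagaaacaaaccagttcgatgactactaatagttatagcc
Hoxc4 (chr15:103034245-103034394, plus strand): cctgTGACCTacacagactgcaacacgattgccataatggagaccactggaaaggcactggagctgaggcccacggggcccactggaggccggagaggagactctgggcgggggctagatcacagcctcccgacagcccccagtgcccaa
Hoxd8 (chr2:74704465-74704614, plus strand): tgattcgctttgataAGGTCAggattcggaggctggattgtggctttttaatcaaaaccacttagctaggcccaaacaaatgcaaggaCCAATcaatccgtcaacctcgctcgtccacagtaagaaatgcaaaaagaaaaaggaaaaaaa
Hoxb4 (chr11:96318117-96318266, plus strand): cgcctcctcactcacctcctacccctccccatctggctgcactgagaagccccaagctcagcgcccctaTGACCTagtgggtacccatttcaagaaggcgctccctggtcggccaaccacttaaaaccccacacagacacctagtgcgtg
Hoxd4 (chr2:74721828-74721977, plus strand): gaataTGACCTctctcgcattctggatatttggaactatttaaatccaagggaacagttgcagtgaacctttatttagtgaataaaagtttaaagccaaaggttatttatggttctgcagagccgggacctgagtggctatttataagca

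Over all 21 genes, AGGTCA was found for 2 of 7 called and 3 of 14 uncalled genes, CCAAT for 4 and 6, and TGATNNAT for 1 and 1, counting a gene with more than 1 start if any window matched. Among the windows shown, AGGTCA was found in those of Hoxc4, Hoxd8, Hoxb4 and Hoxd4, and it was found in 8.58% of 32851 promoter windows of this length. CCAAT was found 4 times for Hoxa2 and 1 time each for Hoxa6 and Hoxd8, against 24.5% of all windows with at least 1. TGATNNAT was found for Hoxa2 (4.12% of all windows). The windows shown were picked, so their matches do not measure how common these strings are in Hox promoters. The Hoxa5 window held no match but 21 CG dinucleotides and that of Hoxa6 16, where the median window has 4, and those of Hoxa2 and Hoxd4 held 2. A match is only a string of letters in this window, and no match says nothing of the factor.

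Hox proteins bind DNA with partners of the TALE homeodomain class (Meis, Pbx and Pknox). Of 10 listed TALE cofactors, 9 were measured, 2 were called higher, against 9.01% of all genes, and none lower, against 7.89% (limma, 1 had an unadjusted p below 0.05 in that direction). Their median difference was 0.28. Meis2 measured 7.34, 7.17 and 7.91 in Scf-GFP+ cells, against 5.13, 5.03 and 5.50 in whole marrow (2.25 ± 0.23, limma adjusted p = 0.000517), where no marrow array exceeded the olfactory receptor yardstick. Meis3 measured 9.43, 9.61 and 9.47 against 7.37, 7.13 and 7.83 (4.16-fold, 2.06 ± 0.19, limma adjusted p = 0.000342). Both were far apart between the groups.

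Meis1, the partner of Hoxa9 in blood progenitors and leukaemia, differed by 0.77 ± 0.13 and was not called because it stayed under 2-fold (limma adjusted p = 0.00510). Pknox2 measured 6.58, 5.59 and 6.99 against 5.28, 5.43 and 5.43 (1.01 ± 0.34, limma adjusted p = 0.0729). It was called without Scf-GFP+ replicate 2 (1.41, limma adjusted p = 0.00253, range 0.00253 to 0.180 under other settings) and with the term for high Xist (1.61, limma adjusted p = 0.0375). Pbx2 differed by 0.01 (95% interval -0.29 to 0.31).

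**Figure D4:**
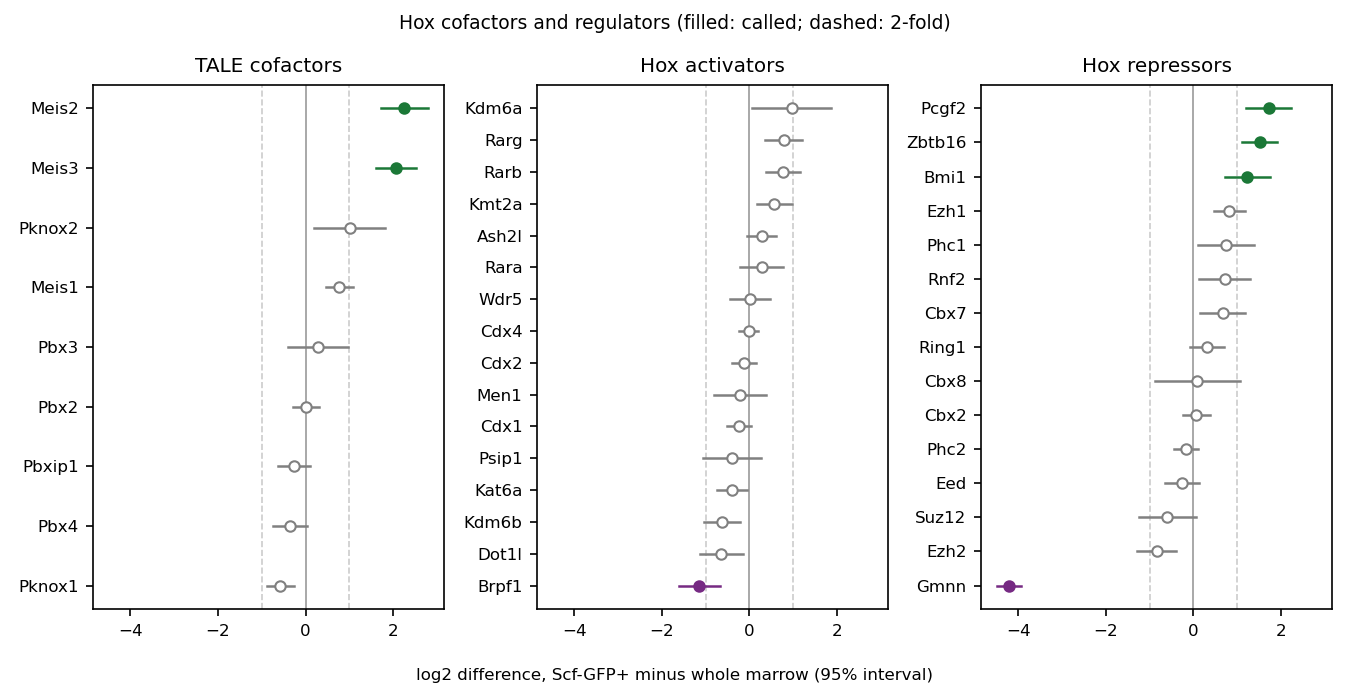
Log2 difference, Scf-GFP+ minus whole marrow, with its 95% interval, for TALE cofactors, Hox activators and Hox repressors. Filled points are called genes (green higher, purple lower) and dashed lines mark a 2-fold difference. Meis2, Meis3, Pcgf2, Zbtb16 and Bmi1 lie to the right, and Brpf1 and, farthest out, Gmnn to the left.

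Hox clusters are held active by Trithorax-type proteins and silenced by Polycomb complexes. Of 16 measured activators, 1 was called lower, near the 7.89% of all genes, and none higher, against 9.01% (limma, 4 had an unadjusted p below 0.05 in that direction). The gene called was Brpf1, a subunit of the Kat6a acetyltransferase complex, at -1.15 ± 0.19 (limma adjusted p = 0.00539). With the term for high Xist it was -0.88 and not called (limma adjusted p = 0.0700, range 0.00294 to 0.0700 under other settings). Kmt2a, the methyltransferase that maintains Hox expression, differed by 0.57 ± 0.17, under 2-fold. The retinoic acid receptors Rarg and Rarb, through which retinoic acid switches on early Hox genes, differed by 0.78 ± 0.18 and 0.77 ± 0.16. Both were called with the term for high Xist, at 1.06 (limma adjusted p = 0.0233, range 0.0142 to 0.0521 under other settings) and 1.04 (limma adjusted p = 0.0145, range 0.00810 to 0.0523). The X-linked demethylase gene Kdm6a measured 8.75, 8.46 and 7.42 against 6.76, 7.54 and 7.46, high on the arrays with high Xist. It was not called (0.96 ± 0.38), except without Scf-GFP+ replicate 3 (1.35, limma adjusted p = 0.0169, range 0.0169 to 0.804 under other settings).

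Of 15 measured repressors, 3 were called higher, against 9.01% of all genes, and 1 lower, near the 7.89% of all genes. Bmi1 and Pcgf2 encode alternative subunits of Polycomb repressive complex 1. Pcgf2 was higher by 1.72 ± 0.21 (3.30-fold, limma adjusted p = 0.00133) and Bmi1 by 1.23 ± 0.21 (limma adjusted p = 0.00593). Without Scf-GFP+ replicate 2, Bmi1 fell just under 2-fold (0.99, limma adjusted p = 0.00226, range 0.00226 to 0.0781 under other settings), and with the term for high Xist it was 0.98 and not called. Zbtb16, a zinc finger factor that acts on limb Hox genes, was higher by 1.51 ± 0.16. Gmnn, geminin, which also blocks repeated DNA replication and is made by dividing cells, was lower, with 5.99, 6.03 and 5.98 against 10.33, 10.25 and 10.04 (-4.21 ± 0.11, limma adjusted p = 2.61e-06). Its Scf-GFP+ values did not exceed the olfactory receptor yardstick on any array, so the size of the difference is uncertain. Ezh2, the Polycomb methyltransferase of dividing cells, and Ezh1, its counterpart in resting cells, differed by -0.84 ± 0.18 and 0.82 ± 0.15, both under 2-fold. With the term for high Xist, Ezh2 was called lower (-1.16, limma adjusted p = 0.0145, range 0.0124 to 0.0543 under other settings).

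Genes that flank the clusters were measured as neighbours outside the Hox rows. Of 16 measured, none was called higher by limma, against 9.01% of all genes. An unadjusted p below 0.05 in that direction was found for 3, against 3608 of all 19938 genes. Called lower was 1, near the 7.89% of all genes. This was Cbx5, a heterochromatin protein gene beside cluster C, at -1.07 ± 0.11. Next to cluster A, Skap2, an adaptor of immune cells, differed by -0.65 ± 0.11 and the homeobox gene Evx1 by 0.09 ± 0.15, and beside cluster D, Mtx2 differed by 0.75 ± 0.23. None of these 3 was called.

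The clusters also carry miRNA genes, and those of the miR-10 and miR-196 families target Hox transcripts. The mature miRNAs, from RefSeq, show 1 seed per family (bases 2 to 8, in capitals), shared between members of different clusters.
mmu-miR-10a-5p: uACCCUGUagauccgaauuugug
mmu-miR-10b-5p: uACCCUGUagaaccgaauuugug
mmu-miR-196a-5p: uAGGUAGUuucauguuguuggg
mmu-miR-196b-5p: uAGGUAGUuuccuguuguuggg

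These probe sets do not separate the mature miRNA from its precursor. Mir10a and Mir10b differed by -0.01 and -0.08, and Mir196a-1 and Mir196a-2 by -0.26 and 0.09. None of them exceeded the olfactory receptor yardstick on any array, so these differences do not show equal expression. Mir196b, between Hoxa9 and Hoxa10, measured 5.86, 5.58 and 7.39 against 5.92, 5.74 and 5.95, so Scf-GFP+ replicate 3 alone stood high (0.41 ± 0.45, limma adjusted p = 0.555). Of 16 listed non-coding transcripts of the clusters 9 were measured. None was called by limma, against 9.01% of all genes higher and 7.89% lower, and none had an unadjusted p below 0.05.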

How the data were processed

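The authors deposited a table of log2 values for 6 arrays, without pooling. RMA, affy and limma are named in the submitters' processing notes, with no versions or roles, and no annotation build is given in the sources used here. Per the labels' protocols, RNA was amplified with a NuGEN Pico kit, which can change relative signal. No further normalization was applied. Of 28940 rows, 21789 had 1 gene symbol, 1621 several and 5530 none. Symbols were updated through Entrez identifiers (RefSeq, GRCm38.p6; 91 rows not found), and the row with the highest mean stood for each of 19938 genes.

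Groups were compared across all genes with limma 3.58.1 in R 4.3.3 (lmFit and eBayes, no covariates), Benjamini-Hochberg adjusted over all genes and tested on simulated data. Errors are limma's SE unless marked SD, intervals are 95%, and RMA values have no detection call. The number of arrays, 3 per group, limits the precision. Members and gene lists were chosen with earlier results of these data known. The naming rule gave array values for Hoxa9 and called Hox genes, other Hox genes by range and count, and called members of each list with up to 3 others. Array values of Hoxa7, Hoxa11, Hoxb4, Hoxc11 and Hoxd9, and the additional names Pknox1, Kdm6a and the miRNA genes, were added after their values were seen. Lists held TALE cofactors, activators, repressors, flanking genes, non-coding transcripts and stromal, blood, stem, neutrophil and endothelial markers. Alternatives were leaving out each array, a replicate block, other rows per gene, filters on low values, variance models, scalings, thresholds and a term for high Xist.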

Additional observations from a re-analysis of the deposited data

How the results depend on the processing

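Over 18 alternatives, 11 of the 12 called Hox genes were called every time and none changed sign. Hoxa10 was the exception. Some of these alternatives could hardly remove a Hox call, or not at all. Each Hox gene had 1 probe set, so other rows per gene left its values unchanged. Dropping the fold minimum cannot remove a call. The stricter threshold of 0.01 could not either, as the highest limma adjusted p of the 12 was 0.00791. The number called higher was 12 throughout, except 18 with no fold minimum and 14 with the term for high Xist, and leaving out Scf-GFP+ replicate 2 exchanged Hoxa10 for Hoxa7. Samples of equal replicate number showed little shared deviation (correlations -0.063, -0.0218 and 0.0662), which cannot tell whether they were prepared together. With the replicate block 12 Hox genes were called. Over all genes, 3370 were called, and 5393 with no fold minimum. No alternative called a Hox gene lower. With no fold minimum, 1 TALE cofactor, Pknox1, was called lower. Without Scf-GFP+ replicate 3, Mir196b differed by -0.15 instead of 0.41, and the range over single left-out arrays was -0.15 to 0.76. It was called only with the term for high Xist (1.52), where the comparison rests on that array. Background correction and probe summary could not be varied from log2 summaries. The filter on the olfactory receptor yardstick asked for at least 3 arrays above it. Of the 12 called genes, 8 met this through Scf-GFP+ arrays alone, so their calls under that filter add no support. Low whole marrow signal also limits how well these 8 of the 12 differences are sized.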

Other observations

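Other transcripts lie among the Hox genes. Of 31 other RefSeq genes inside the clusters, 10 had a probe set of their own, and 1 was called higher, near the 9.01% of all genes. This list was made after the values were seen. The gene called, 5730596B20Rik, lies in cluster A. It measured 7.38, 6.68 and 7.70 in Scf-GFP+ cells and 6.19, 5.99 and 6.17 in whole marrow (1.13 ± 0.26 SE, limma adjusted p = 0.0179). The call was lost without Scf-GFP+ replicate 1 (1.07, limma adjusted p = 0.0586) or replicate 3 (0.91, under 2-fold). It also lost it without whole marrow replicate 2 (limma adjusted p = 0.0605) or replicate 3 (limma adjusted p = 0.0539), with a range of 0.00187 to 0.0605 under other settings. Haglr, in cluster D, measured 4.87, 4.75 and 4.99 against 5.02, 4.73 and 5.35, with overlap.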
